A study of Mus musculus with 4 samples.

Results

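The nuclear-encoded respiratory chain genes were followed here in RAW264.7 cells, a macrophage line from the mouse, that shared a culture with cells of the colon carcinoma line CT26, also from the mouse, against RAW264.7 cells labelled mock. Members were taken by symbol: the Nduf subunits of complex I, Sdha to Sdhd of complex II, the Uqcr genes and Cyc1 of complex III, the Cox4 to Cox8 genes of complex IV, and Cycs, which encodes cytochrome c. A symbol had to stand once in each of the 2 deposited tables, which gave 69 of 22554 genes: 37 of complex I, 4 of complex II, 9 of complex III, 18 of complex IV, and Cycs. Each group has 2 libraries, coculture 1 and 2 and mock 1 and 2, and each replicate number has a table of its own, so that coculture 1 and mock 1 form pair 1 and coculture 2 and mock 2 form pair 2. Both groups are the same line, for which the labels name no genetic change; the culture medium was DMEM for the macrophages and RPMI1640 for the carcinoma cells. The sources used here do not give the length of the coculture, its medium or the way the macrophages were separated. They also do not say whether replicates came from separate cultures, so a p-value reflects the spread of these libraries alone, and that spread may be technical.

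The respiratory chain carries electrons from NADH and succinate to oxygen through complexes I to IV of the inner mitochondrial membrane and pumps protons, which ATP synthase then uses to make ATP. Most of its subunits are encoded in the nucleus and imported, while some core subunits are encoded by mitochondrial DNA. Macrophages activated by bacterial products are known for lowering oxidative respiration, for reverse electron flow through complex I, for accumulating succinate and for relying on glycolysis.

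Levels are given in FPKM (fragments per kilobase of a gene, scaled by the library's reads). A difference is log2(FPKM + 1) in coculture less that in mock, a scale that understates the change of low genes. The tables may have been normalized separately, so differences were taken within pairs. A statement that groups overlap or lie apart sets levels across tables, and the share of all genes whose groups lie apart was not counted. The depth was estimated at 16200000 and 12200000 reads in coculture 1 and 2 and at 15300000 and 15700000 reads in mock 1 and 2. The 7 macrophage markers checked summed to 9556 and 12588 FPKM in coculture and to 9118 and 5229 FPKM in mock, a sum led by Lyz2, at 6585 and 10287 FPKM in coculture and 7088 and 3529 FPKM in mock. Of the 7, 0 were called at a limma adjusted p under 0.05, against 0.127% of all genes tested that rose and 0% that fell. A list this short therefore says little by holding none. At an unadjusted limma p under 0.05, 2 were higher (Cd14 and Itgam) and 1 lower (Csf1r), against 5.26% and 9.45% of all genes tested. Cd14, a receptor for bacterial products, stood at 1732 and 1149 FPKM in coculture and 607 and 354 FPKM in mock (limma adjusted p = 0.0623). Csf1r, Ptprc and Cd68 were lower in both pairs, and Cd14, Itgam and Adgre1 were higher in both. The 8 markers of epithelial, mesenchymal or stromal cells summed to 0.542 and 0.087 FPKM in coculture and to 0.692 and 0 FPKM in mock, with Epcam and Krt18 at 0 in all 4 libraries. The part that cell makeup has in the results below was not tested. These libraries hold RNA of bulk cultures, so fewer cells that express a gene and less RNA per cell cannot be told apart.

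No respiratory chain gene changed past the test in cocultured macrophages, and the values of most members lay close together in the groups. Of the 64 members that reached 1 FPKM in at least 2 of the 4 libraries, 0 rose and 0 fell at a limma adjusted p under 0.05. Of all 10202 genes tested, 0.127% rose and 0% fell. Calls were rare among all genes, here and after the centring given below, so 64 members say little by holding none. The smallest limma adjusted p of a member was 0.372, for Ndufa12. At an unadjusted p under 0.05 there were also 0 of 64 members, against 14.7% of all genes tested (5.26% higher and 9.45% lower). After each library was centred on its median, limma called 85 genes up and 18 down in place of 13 and 0, and 0 of the members in either direction.

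The intervals bound the size of the differences. For all 64 members the 95% interval of the limma difference lay within a 2-fold change of FPKM + 1 either way, which held for 86.2% of all genes tested. Uqcr11 and Ndufs5 were listed at 0 in both libraries of a table, so their intervals bound little. For low genes the bound is not one on FPKM itself: Cox4i2 had ratios of coculture to mock of 0.563 and 1.89. Within a 1.5-fold change either way lay the intervals of 56 of the 64 members, against 46% of all genes tested. Those shares include genes of low level. Of the 8321 genes that reached 5 FPKM in at least 2 libraries, 89.2% had intervals within a 2-fold change. The median size of the difference, leaving out its sign, was 0.10 over the members and 0.18 over all genes tested. This is the size of the mean over the pairs, which comes out small where the pairs differ in sign, as in 34 members. Since many members are abundant, the comparison of sizes and p-values, but not that of intervals, was repeated among the 1653 genes whose mean reached 50 FPKM. There the median size was 0.09 for the 50 members and 0.14 for all 1653 genes, and 0 members against 14.2% of the genes had an unadjusted p under 0.05.

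The direction differed between the pairs. In pair 1, 39 of the 64 members were higher and 24 lower in coculture, with a median difference of 0.04. In pair 2, 16 were higher and 47 lower, with a median of -0.15. The medians of all genes tested were -0.09 in pair 1 and -0.06 in pair 2, so the members' median lay above it in pair 1 and below it in pair 2. Of the members, 18 were lower in both pairs and 10 higher in both, or 28.1% and 15.6%, against 42.2% and 21.5% of all genes tested, and 34 differed in sign. Over both pairs the median was -0.03 for the members and -0.07 for all genes, and after median centring the members' median was 0.03. After median centring the medians of complexes I and IV also lay above 0, and after rescaling or quantile normalization that of complex III lay below 0. The differences of the 64 members in the pairs had a Spearman's rho of 0.10, given as a description across genes.

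**Figure D1:**
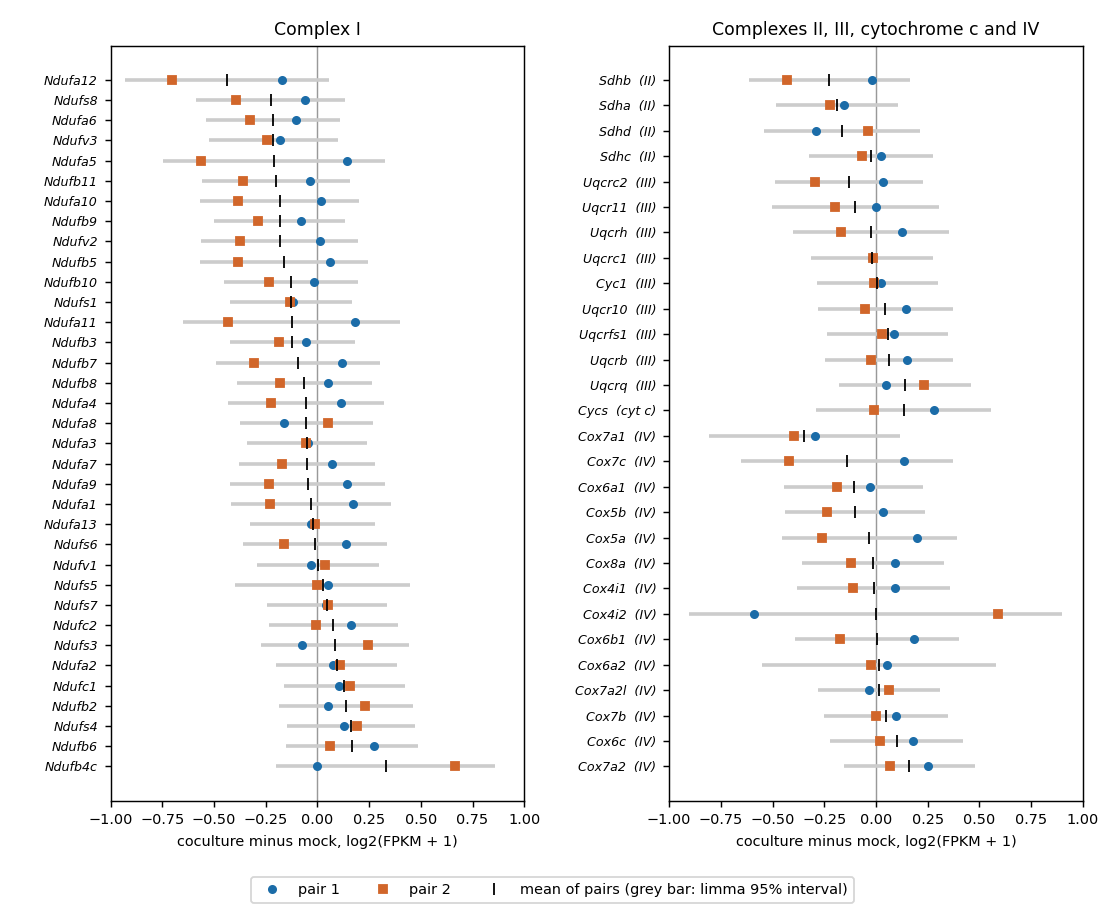
Difference of the tested members, with 1 left out, between coculture and mock on the log2(FPKM + 1) scale (x axis), one row per gene, complex I on the left and complexes II, III, cytochrome c and IV on the right. Circles are pair 1, squares pair 2, ticks the mean of the pairs and grey bars limma's 95% interval; every interval drawn crosses 0 and none reaches a difference of 1, and most squares lie left of the circles.

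The order of the genes by level was nearly the same with and without CT26 cells. Over the 64 members, Spearman's rho between coculture and mock was 0.996 in the first table and 0.976 in the second, as a description across genes that share a library. Members at or above 50 FPKM numbered 47 and 48 in coculture and 48 and 48 in mock. The 69 members together held 1.70% and 1.66% of the FPKM in coculture 1 and 2 and 1.70% and 1.89% in mock 1 and 2. Complex I held 0.736% and 0.628% in coculture and 0.746% and 0.732% in mock, and complex IV 0.542% and 0.585% in coculture and 0.528% and 0.654% in mock. In pair 2 the coculture library was thus the lower one for the whole chain, while in pair 1 the libraries were close. These shares were not tested.

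**Figure D2:**
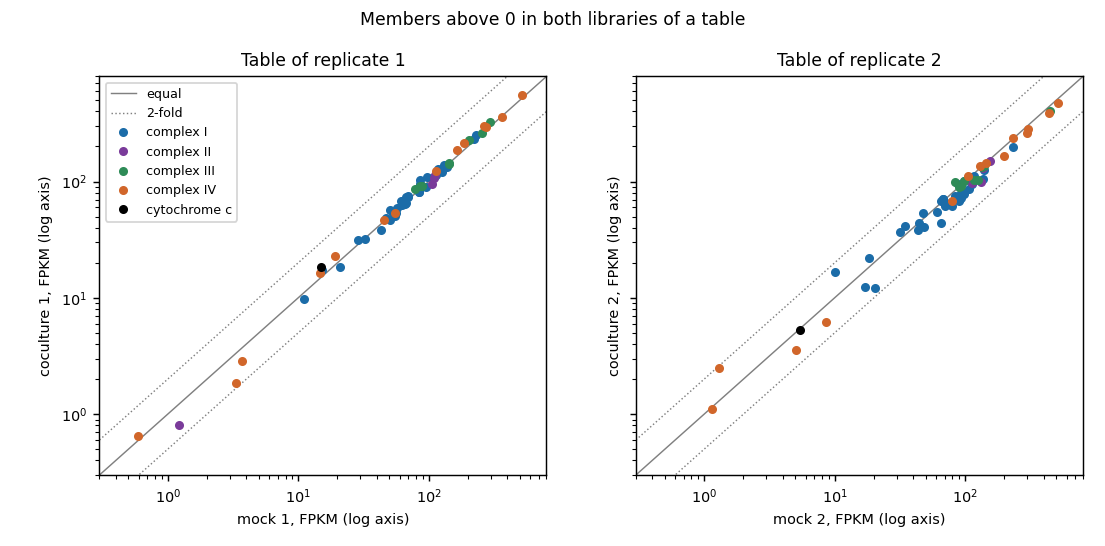
Level of each tested member in coculture (y axis, FPKM, log scale) against mock (x axis, FPKM, log scale), on the left for the table of replicate 1 and on the right for that of replicate 2, coloured by complex. The solid line marks equal levels and the dotted lines a 2-fold difference; all points lie between the dotted lines, with ratios of coculture to mock from 0.563 to 1.23 in the first table and from 0.595 to 1.89 in the second. Members at 0 in a table are not drawn there.

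Complex I takes electrons from NADH, and its 7 nuclear core subunits bind the flavin and the iron-sulfur clusters. Their median difference was -0.11 (-0.05 in pair 1 and -0.13 in pair 2, the order of all such values below), and 3 of the 7 were lower and 1 higher in both pairs. Ndufs8, an iron-sulfur subunit, stood at 80.6 and 68.4 FPKM in coculture and 84.1 and 90.01 FPKM in mock, a difference of -0.23 ± 0.13 (limma's moderated SE, n = 2 pairs, as for every value after ± below; limma adjusted p = 0.496). Both coculture libraries lay below both mock libraries, and most of the gap came from pair 2. Ndufs1, the largest iron-sulfur subunit, stood at 46.9 and 55.0 FPKM in coculture and 51.0 and 60.4 FPKM in mock. Its difference, -0.13 ± 0.11, was near the size of its error. Ndufv2 (-0.18 ± 0.14), which carries an iron-sulfur cluster beside the flavin, and Ndufs3 (0.09 ± 0.13) went opposite ways in the pairs. Ndufv1, which holds the flavin where NADH is oxidised, stood at 65.6 and 67.8 FPKM in coculture and 67.03 and 65.97 FPKM in mock, and Ndufs7, which carries the cluster that hands electrons to quinone, differed by 0.05 ± 0.11. For the flavin subunit the groups overlapped almost wholly.

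The accessory subunits surround that core and are needed for its assembly and stability. Of the 29 tested, 9 were lower and 5 higher in both pairs, with a median of -0.05. Ndufa12, an accessory subunit of the NADH-binding arm, had the lowest difference of all members. It stood at 9.78 and 12.1 FPKM in coculture and 11.1 and 20.4 FPKM in mock, a difference of -0.44 ± 0.18 (95% interval -0.93 to 0.05, limma adjusted p = 0.372). The groups overlapped, since coculture 2 lay above mock 1, with gaps of -0.17 in pair 1 and -0.70 in pair 2. In a fit with no pairing it was -0.85 without mock 1 and -0.03 without mock 2.

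Ndufa6, a small accessory subunit of the quinone-binding arm, stood at 50.8 and 77.7 FPKM in coculture and 54.8 and 97.6 FPKM in mock. Ndufv3, the small subunit beside the flavin, stood at 18.3 and 40.9 FPKM in coculture and 20.9 and 48.6 FPKM in mock. Ndufb11, a membrane subunit, stood at 64.1 and 69.9 FPKM in coculture and 65.7 and 90.1 FPKM in mock. Each was lower in coculture within each table, by differences of -0.22 ± 0.12, -0.21 ± 0.12 and -0.20 ± 0.13, and Ndufv3 had the most even gap over the pairs (-0.18 and -0.24). None of these passed the test.

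At the other end, Ndufb6, a membrane subunit, stood at 104 and 71.1 FPKM in coculture and 85.4 and 68.1 FPKM in mock, a difference of 0.17 ± 0.12. Ndufs4, a subunit of the NADH arm whose loss is a known cause of complex I deficiency in mice, stood at 31.5 and 36.7 FPKM in coculture and 28.7 and 32.0 FPKM in mock, a difference of 0.16 ± 0.12. Ndufb2, another membrane subunit, differed by 0.14 ± 0.12. These lay on the higher side in both pairs without passing the test. Ndufa5, a subunit of the quinone arm, had the widest disagreement of complex I: 67.6 FPKM in coculture 1 against 61.1 FPKM in mock 1, but 43.6 FPKM in coculture 2 against 65.04 FPKM in mock 2.

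Ndufb4c had the highest difference of all members, 0.33 ± 0.20, with values of -0.004 in pair 1 and 0.67 in pair 2, and its values are uncertain. It stood at 53.2 and 16.7 FPKM in coculture and 53.4 and 10.1 FPKM in mock. In the first table its values are identical to those of 1 of the 3 rows named Ndufb4, the gene it closely resembles, and Ndufb4 itself is no member because of those repeated rows.

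Complex II oxidises succinate, the metabolite that accumulates in activated macrophages, and is encoded by the nucleus alone. Its median of -0.18 was the lowest of the 4 complexes (-0.09 and -0.15 in the pairs), and 3 of its 4 genes were lower in both pairs. Sdha, the flavin subunit that holds the succinate site, stood at 95.9 and 96.7 FPKM in coculture and 107 and 113 FPKM in mock, a difference of -0.19 ± 0.11 (95% interval -0.48 to 0.11, limma adjusted p = 0.493). The coculture libraries lay below both mock libraries and the gap was of like size in the pairs, at -0.15 and -0.22. Sdhb, the iron-sulfur subunit, stood at 108 and 98.4 FPKM in coculture and 109 and 133 FPKM in mock, a difference of -0.22 ± 0.15 (limma adjusted p = 0.528), nearly all of it from pair 2. Sdhc, a membrane anchor, stood at 114 and 132 FPKM in coculture and 112 and 138 FPKM in mock, a difference of -0.02 ± 0.11. In pair 1 Sdhb (-0.02) was as close to level as this anchor (0.02). No difference passed the test, and the anchor was not tested against the catalytic subunits.

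Sdhd, the other anchor, stood at 0.815 FPKM in coculture 1 and 1.22 FPKM in mock 1, but at 150.2 FPKM in coculture 2 and 154 FPKM in mock 2. At the estimated depth and a GENCODE M21 exon length, the first table's values correspond to about 16 and 23 reads. Its difference in pair 1, -0.29, therefore rests on few reads, and that in pair 2 was -0.04. Sdhd is among the 3 genes of complex II lower in both pairs and enters the median of that complex. Both results therefore rest in part on these few reads, above all in pair 1.

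Such gaps between the tables, over 4-fold in the mock libraries, occurred for 5 members. Cox7a2 stood at 23.0 and 136 FPKM in coculture and 19.2 and 129 FPKM in mock. Uqcr11 was listed at 0 in both libraries of the first table and at 102 FPKM in coculture 2 and 118 FPKM in mock 2. Ndufs5 was listed at 0 in both libraries of the second table and at 48.7 FPKM in coculture 1 and 46.95 FPKM in mock 1, while a row named Ndufs5-ps, found in the second table alone, stood at 27.8 FPKM in coculture 2 and 31.5 FPKM in mock 2. Ndufb4c and Sdhd are the others. The tables list different rows, and each gap is shared by the coculture and mock library of its table; the cause was not tested. Without these 5 members the median over the remaining 59 was -0.03, as with them.

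Complex III passes electrons from quinol to cytochrome c, and its members differed by -0.13 to 0.14. Their median was 0.006 (0.05 and -0.02 in the pairs), all 9 intervals lay within a 1.5-fold change, and 1 gene was lower and 2 higher in both pairs. Cyc1, the cytochrome c1 subunit, stood at 145 and 89.5 FPKM in coculture and 142 and 90.2 FPKM in mock, a difference of 0.01 ± 0.11 (95% interval -0.29 to 0.30). Uqcrfs1, the Rieske iron-sulfur subunit, stood at 90.96 and 100.4 FPKM in coculture and 85.7 and 98.4 FPKM in mock, a difference of 0.06 ± 0.11. Cyc1 and Uqcrfs1 therefore differed by no more than their errors. The cytochrome b of the complex, encoded by mitochondrial DNA, has no replicate and was not tested.

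Uqcrc1, a structural core subunit, stood at 142 and 134 FPKM in coculture and 144 and 136 FPKM in mock, the only gene of the complex that was lower in both pairs. Uqcrq, a small accessory subunit, was the highest, at 263 and 98.1 FPKM in coculture and 254 and 83.3 FPKM in mock (0.14 ± 0.12). Uqcrc2, the partner of Uqcrc1, and Uqcrh, the hinge subunit, disagreed most between the pairs, with 0.03 and 0.12 in pair 1 and -0.30 and -0.17 in pair 2. Cycs, the mobile carrier between complexes III and IV that also triggers caspase activation when released, stood at 18.5 and 5.34 FPKM in coculture and 15.1 and 5.39 FPKM in mock, a difference of 0.13 ± 0.16 (limma adjusted p = 0.727). It was the higher in coculture in pair 1 and level in pair 2.

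Complex IV reduces oxygen to water, and all its nuclear subunits surround a catalytic core encoded by mitochondrial DNA. Several of them exist as isoforms used in different tissues or at low oxygen, and in RAW264.7 cells the widely used isoform was the higher one of each such pair with and without CT26 cells. FPKM are per length of gene, so these levels can be set against each other within a table. Cox4i1 stood at 555 and 476 FPKM in coculture and 522 and 514 FPKM in mock. Cox4i2, the isoform known from lung and low oxygen, stood at 1.86 and 2.47 FPKM in coculture and 3.31 and 1.31 FPKM in mock. It went opposite ways in the pairs by -0.59 and 0.59, on estimates of 24 and 24 reads in coculture and 40 and 16 reads in mock.

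Cox6a1 stood at 360 and 259 FPKM in coculture and 366 and 296 FPKM in mock, against 0.655 and 1.12 FPKM in coculture and 0.593 and 1.16 FPKM in mock for its heart and muscle isoform Cox6a2. Cox6b1 stood at 301 and 390 FPKM in coculture and 265.4 and 440 FPKM in mock, while its testis isoform Cox6b2 was listed at 0 and 0.265 FPKM in coculture and 0 and 0.103 FPKM in mock. Cox8a stood at 294 and 281 FPKM in coculture and 275 and 306 FPKM in mock, while Cox8b and Cox8c were listed at 0 in all 4 libraries. Cox6a2, Cox6b2, Cox8b and Cox8c thus stayed at or below 1.16 FPKM in both groups.

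Cox7a1, the heart and muscle isoform of subunit 7a, was the only tissue isoform named here that was above 2 FPKM in every library. It stood at 2.86 and 3.57 FPKM in coculture and 3.74 and 5.02 FPKM in mock, the lowest difference of complex IV at -0.35 ± 0.17 (95% interval -0.81 to 0.12, limma adjusted p = 0.426). Both coculture libraries lay below both mock libraries, on estimates of 25 and 23 reads in coculture and 31 and 42 reads in mock. Its counterpart Cox7a2 had the highest difference of complex IV, 0.16 ± 0.12, with the level gap between tables given above. Cox7a2l, a related protein that joins complexes III and IV into supercomplexes, stood at 54.1 and 110.5 FPKM in coculture and 55.4 and 106 FPKM in mock (0.01 ± 0.11).

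Ndufa4, named for complex I but known as a subunit of complex IV, stood at 252 and 199 FPKM in coculture and 232 and 233 FPKM in mock, while its hypoxia-inducible relative Ndufa4l2 was listed at 0 in all 4 libraries. Counting Ndufa4 under complex IV left the medians of complexes I and IV at -0.05 and -0.01. The members below the filter were Ndufa4l2, Cox6b2, Cox7b2, Cox8b and Cox8c, and Cox7b2, a further testis isoform, was also at 0 throughout.

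**Figure D3:**
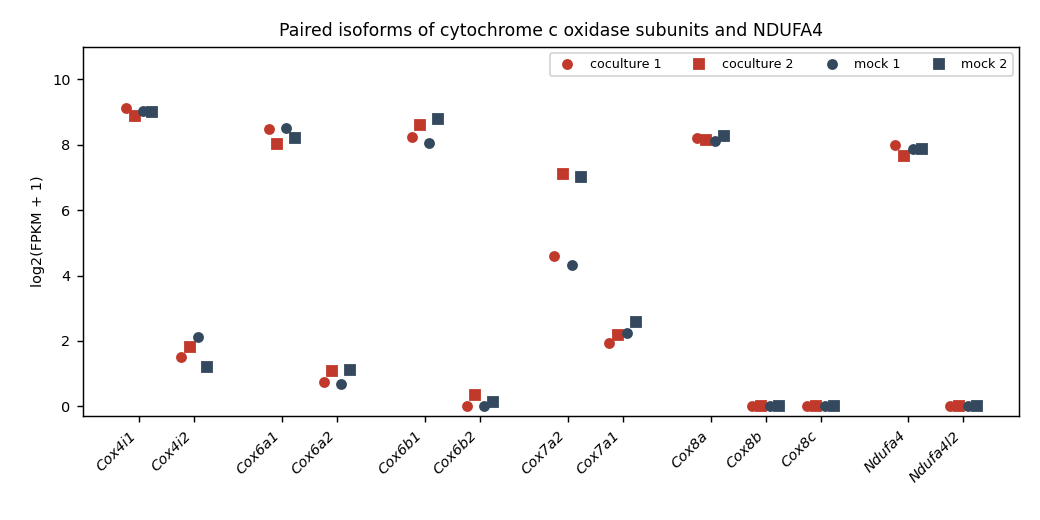
Level of paired isoforms on the log2(FPKM + 1) scale (y axis) in each library (red: coculture, dark: mock; circles: replicate 1, squares: replicate 2). In each set the widely used isoform lies above its counterparts in all 4 libraries, and the coculture and mock symbols of a replicate lie close together except for Cox4i2; the low circles of Cox7a2 are the gap between the tables.

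Among the remaining complex IV genes, Cox6c was, with Cox7a2, higher in coculture in both pairs, at 186 and 236 FPKM in coculture and 164 and 233 FPKM in mock (0.10 ± 0.12). Cox6a1, given above, and Cox7a1 were the members lower in both pairs. Cox7c, a small subunit with several processed copies in the genome, stood at 16.3 and 6.19 FPKM in coculture and 14.8 and 8.61 FPKM in mock, with -0.42 in pair 2 and 0.13 in pair 1. The 14 tested genes had a median of -0.006 (0.09 and -0.12 in the pairs).

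The subunits encoded by mitochondrial DNA were listed in the first table alone, so they have no replicate and were not tested. In pair 1, 12 of the 13 were lower in coculture, with a median difference of -0.11 and a range of -0.24 to 0.12. The 13 include mt-Atp6 and mt-Atp8, which belong to ATP synthase and not to complexes I to IV, and both were lower. mt-Co1, the catalytic subunit of complex IV, stood at 7106 FPKM in coculture 1 and 7964 FPKM in mock 1. mt-Cytb, the cytochrome b of complex III, stood at 3337 FPKM in coculture 1 and 3509 FPKM in mock 1, and mt-Nd5 of complex I at 912 FPKM in coculture 1 and 1076 FPKM in mock 1. mt-Nd3 was the only one higher, at 391.7 FPKM in coculture 1 and 359 FPKM in mock 1. In the same pair the median was 0.04 over the nuclear members and -0.09 over all genes tested, of which 37.4% were higher in coculture.

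Genes that work with the chain also had no call in either direction. Of all genes tested, 0.127% rose and 0% fell past the test, so lists this short say little by holding none. ATP synthase and its inhibitor gave a median of 0.008 over 18 genes (0.10 and -0.12 in the pairs), of which 0 were called, 3 were lower and 5 higher in both pairs. These pair medians had the same signs as those of the chain itself. Atpif1, the inhibitor of ATP synthase, stood at 342 and 132 FPKM in coculture and 353 and 169 FPKM in mock, and Atp5c1, the rotor subunit gamma, at 137 and 153 FPKM in coculture and 151 and 170 FPKM in mock. Atp5md, a small accessory subunit, was highest, at 73.6 and 73.0 FPKM in coculture and 60.4 and 71.6 FPKM in mock, before Atp5l at 0.08 ± 0.15. The 6 carriers and channels that move ATP, ADP, phosphate and metabolites had a median of -0.05, with 0 called. The channel genes Vdac2 and Vdac1 were the lowest at -0.14 ± 0.12 and -0.08 ± 0.12, and Vdac3 and the ADP/ATP exchanger gene Slc25a5 the highest at 0.17 ± 0.12 and 0.07 ± 0.13.

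Assembly factors, which build the complexes and are not part of them, of complexes I, III and IV had medians below 0 in pair 1 and above 0 in pair 2. The 16 factors of complex I had medians of -0.07 in pair 1 and 0.11 in pair 2, and the 18 of complex IV -0.04 and 0.04, with 0 called in each. Cox17, the copper chaperone that delivers copper for complex IV, had the largest difference of any gene of these lists except Ppargc1b. It stood at 163 and 193 FPKM in coculture and 131 and 81.3 FPKM in mock, a difference of 0.77 ± 0.25 (95% interval 0.11 to 1.43, limma adjusted p = 0.297). Both coculture libraries lay above both mock libraries, with gaps of 0.31 in pair 1 and 1.24 in pair 2, and the adjusted p lay between 0.2 and 1 over the 13 alternatives. Without mock 2, in a fit with no pairing, the difference was 0.43.

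Cox16, another complex IV factor, differed by 0.21 ± 0.17, and Taco1, which activates translation of mt-Co1, and Sco1, a copper factor, by -0.24 ± 0.14 and -0.18 ± 0.16. For complex I, Tmem126a stood at 41.03 and 45.05 FPKM in coculture and 38.4 and 29.2 FPKM in mock (0.35 ± 0.17) and Ndufaf1 at 22.2 and 27.2 FPKM in coculture and 19.8 and 19.8 FPKM in mock (0.30 ± 0.14), while Ecsit, which also acts in Toll-like receptor signalling, and Ndufaf7 differed by -0.23 ± 0.13 and -0.13 ± 0.15. Both higher genes had coculture libraries above both mock libraries, without passing the test (limma adjusted p = 0.409 and 0.404). They were named as the highest of their list, as was Cox17, so this is no further support.

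For complex II, 4 factors were tested and 0 called. Sdhaf2, which helps attach the flavin to Sdha, stood at 18.6 and 20.1 FPKM in coculture and 15.8 and 15.6 FPKM in mock, a difference of 0.28 ± 0.13. It lay on the opposite side to Sdha itself. For complex III, 6 factors were tested and 0 called. Uqcc3, which acts in the assembly of cytochrome b, was lower at an unadjusted p under 0.05 and stood at 15.6 and 17.0 FPKM in coculture and 19.4 and 23.1 FPKM in mock (-0.36 ± 0.13, limma adjusted p = 0.33). Bcs1l, which inserts the Rieske subunit, differed by -0.25 ± 0.16, and Ttc19 by 0.36 ± 0.19.

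The regulators of mitochondrial gene expression had a median of -0.11 (-0.10 and -0.12 in the pairs). Of the 13 tested, 0 were called, 7 were lower and 1 higher in both pairs, and 3 were lower at an unadjusted p under 0.05. Of all genes tested, 42.2% were lower and 21.5% higher in both pairs, and 9.45% were lower at that p. Ppargc1b, a coactivator of mitochondrial genes of the PGC-1 family, stood at 1.25 and 3.34 FPKM in coculture and 6.02 and 4.58 FPKM in mock, a difference of -1.003 ± 0.35 (95% interval -1.94 to -0.07, limma adjusted p = 0.32). Its gap was -1.64 in pair 1 and -0.36 in pair 2, and -0.53 without coculture 1 in a fit with no pairing. Polrmt, the RNA polymerase that transcribes mitochondrial DNA, stood at 8.04 and 7.78 FPKM in coculture and 12.6 and 10.1 FPKM in mock, a difference of -0.46 ± 0.16 (limma adjusted p = 0.31). Gabpb2, named here after its values were seen, was the other such gene, encodes a partner of the ETS factor GABPA and differed by -0.34 ± 0.12. In each of these 3 genes both coculture libraries lay below both mock libraries. They were named for their low differences, so this is no further support, and the share of all genes like this was not counted. Tfb1m was the gene higher in both pairs, at 0.16 ± 0.14, and Ppargc1a, the best-known PGC-1 gene, was at or near 0 in every library.

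**Figure D4:**
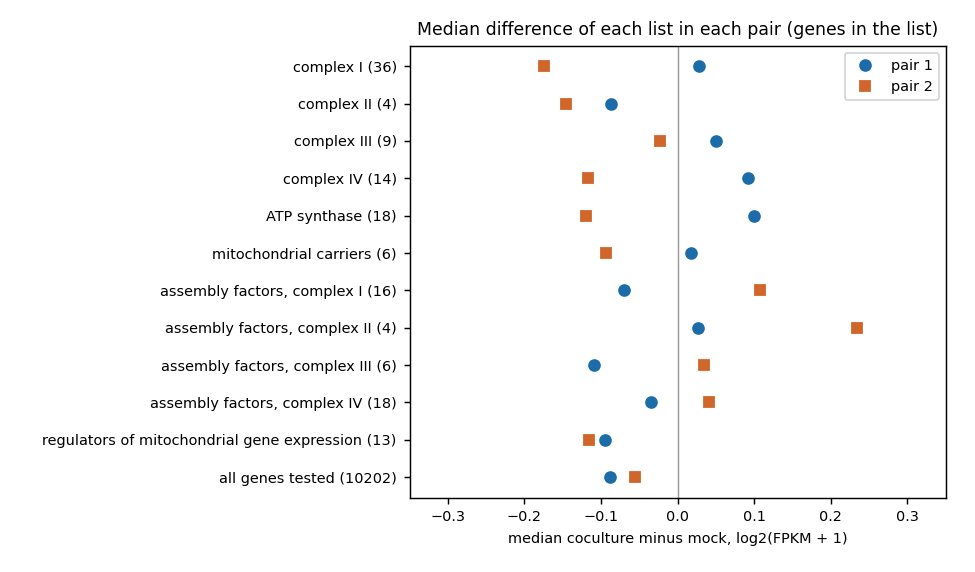
Median difference between coculture and mock (x axis, log2(FPKM + 1) scale) of each complex and each related list, in pair 1 (circles) and pair 2 (squares), with the number of genes tested in brackets and all genes tested in the bottom row. Complexes I, III and IV, ATP synthase and the carriers have their circles right of 0 and their squares left of it, the assembly factors of complexes I, III and IV the reverse, and complex II and the regulators have both symbols left of 0.

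The promoters were searched for letters that the choice of members did not use. Nuclear respiratory factor 1 (NRF1), ETS factors such as GABPA, YY1 and oestrogen-related receptors (ERR) are known to bind promoters of mitochondrial genes. Of the 69 members, 53 had an entry among the RefSeq promoter windows (GRCm38.p6, 250 bases before to 50 after the start), with 55 windows in all. The NRF1 letters GCGCATGCG, read on both strands, were in 10.9% of the members' windows and in 1.75% of all 32851 windows. The ETS letters CCGGAAG were in 20.0% of the members' windows and 8.86% of all, the YY1 letters AAGATGGCG in 9.09% and 1.40%, and the ERR letters TCAAGGTCA in 1.82% and 0.423%. In all, 20 members held at least 1 of the 4 motifs. These shares were not tested, and a match is not a site in these cells.

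The promoters of Cox6a1, Cycs and Cox6b1 are printed because they show the NRF1 and ETS letters in members described above. Each is the 250 bases before the start, on the gene's strand, with NRF1 and ETS letters on either strand in capitals. In the Cox6a1 promoter (chr5:115348959-115349208, minus strand) the NRF1 letters read on both strands and overlap, so the capitals run 1 base longer. The Cycs promoter (chr6:50566570-50566819, minus strand) holds the NRF1 letters on the opposite strand, and that of Cox6b1 (chr7:30626115-30626364, minus strand) the ETS letters on the opposite strand, with their first base 28 bases before the start.
Cox6a1: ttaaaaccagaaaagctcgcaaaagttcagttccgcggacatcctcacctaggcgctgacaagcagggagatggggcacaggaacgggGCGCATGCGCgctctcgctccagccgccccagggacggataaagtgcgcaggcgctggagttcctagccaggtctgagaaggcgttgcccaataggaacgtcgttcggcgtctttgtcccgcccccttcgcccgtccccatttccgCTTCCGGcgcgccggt
Cycs: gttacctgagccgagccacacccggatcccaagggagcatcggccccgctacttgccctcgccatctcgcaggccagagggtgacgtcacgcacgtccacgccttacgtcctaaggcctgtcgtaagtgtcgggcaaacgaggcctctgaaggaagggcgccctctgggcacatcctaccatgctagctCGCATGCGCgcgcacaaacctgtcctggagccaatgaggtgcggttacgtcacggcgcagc
Cox6b1: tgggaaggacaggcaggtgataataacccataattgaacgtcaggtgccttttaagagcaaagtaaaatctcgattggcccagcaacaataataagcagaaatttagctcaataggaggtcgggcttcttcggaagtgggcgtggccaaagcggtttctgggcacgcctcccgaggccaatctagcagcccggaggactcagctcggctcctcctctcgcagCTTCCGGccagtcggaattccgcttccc

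Median differences are given for tested members with and without each motif. The 6 tested members with the NRF1 letters (Cox6a1, Cycs, Ndufa11, Ndufa8, Uqcr11 and Uqcrc1) had a median difference of -0.08 against -0.05 for the 44 without. The 11 with the ETS letters, among them Sdhb, Ndufs8 and Uqcrh, had a median of -0.09 against -0.05 for the 39 without. The 5 with the YY1 letters (Ndufa9, Ndufc1, Ndufs4, Ndufs6 and Ndufs7) had a median of 0.05 against -0.05 for the 45 without. The 1 with the ERR letters, Sdhd, differed by -0.16 against a median of -0.05 for the 49 without. These are descriptions of small groups and were not tested.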

How the data were processed

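Messenger RNA was sequenced in 4 libraries, 2 of each group. The authors deposited FPKM in 2 tables, 1 per replicate number; the submitters' processing notes name Trim Galore, Subread, featureCounts and the build hg38, which is human although the symbols are mouse. The sources used here give no versions, annotation, gene lengths, totals or strand. Unnamed rows (23, at most 5.25e-06% of a library's FPKM) and repeated symbols (287 rows) of the first table were left out. Paralogs and processed copies can share reads, so such members are uncertain.

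FPKM were used as deposited. Genes were kept that reached 1 FPKM in 2 or more libraries, and log2(FPKM + 1) was fitted in limma 3.58.1 (R 4.3.3, trended prior variance, two-sided, Benjamini-Hochberg over all genes tested), blocked by replicate pair, since the tables may have been normalized separately. Residual degrees of freedom were 1 and prior ones 3.43, and the fit was tested on simulated data. Libraries of the same number deviated together (correlation of deviations across genes 0.76), but with only 2 pairs and no label on their origin this does not show what they share. Depth was estimated as the total at which low FPKM times GENCODE M21 exon lengths came out whole within 0.05 reads most often (26.7% to 29.5% of the values, against 10% by chance). Lists were described by counts and medians. The members and lists were chosen with earlier results of these data known. The genes named were, among those with the same sign in both pairs, the 5 lowest and 3 highest of complexes I, III and IV and the 2 lowest and 2 highest of each other list (fewer where fewer had the same sign). Also named were the 2 genes of each of these complexes with the widest gap between the pairs, complex II, Cyc1, Cycs, core subunits, isoforms and members below the filter; 1 member that this rule names is not reported here. Alternatives covered the pseudocount, filter, scaling, block, variance trend and each library left out; those on gaps between the tables and on Ndufa4 were added after seeing the data.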

Additional observations from a re-analysis of the deposited data

Results flagged for a closer look

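Rows that match the members' symbols but stand in 1 table or on repeated rows were not part of the comparison. Of these 9 rows, 4 were above their mock library, 4 below it and 1 at 0 in both, each in 1 pair and with no test. Ndufa11b stood at 1.55 FPKM in coculture 2 and 0.48 FPKM in mock 2. Ndufs6b stood at 4.04 FPKM in coculture 1 and 2.78 FPKM in mock 1. The lowest of the 3 rows named Ndufb4 in the first table stood at 3.26 FPKM in coculture 1 and 2.44 FPKM in mock 1, and Ndufb4 in the second table at 5.58 FPKM in coculture 2 and 5.31 FPKM in mock 2. Lower in coculture were the other 2 rows named Ndufb4 in the first table, at 49.9 and 53.2 FPKM in coculture 1 and 55.6 and 53.4 FPKM in mock 1, and in the second table Cox7c-ps1, at 1.54 FPKM in coculture 2 and 2.04 FPKM in mock 2, and Ndufs5-ps, at 27.8 FPKM in coculture 2 and 31.5 FPKM in mock 2. All are close copies or repeated names of members, and the sharing of reads between them was not tested.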

How the results depend on the processing

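No member passed the limma test under any of the 13 alternatives, with the smallest adjusted p of a member between 0.285 and 1. For the genes called in coculture against mock over all genes, the count of 13 became 22 with a pseudocount of 0.1, 0 with no filter (at an unadjusted p under 0.05, 634 up and 986 down), 26 with at least 5 FPKM, 26 after rescaling to a common total, 103 after median centring, 46 after quantile normalization, 1 with no replicate block and 1 with no trend. It was 0 without any single library, where 141 to 275 genes were up and 35 to 301 down at an unadjusted p under 0.05. The unblocked fit also gave 0 members with an unadjusted p under 0.05. Rescaling gave 1 such member, Ndufa12. The median difference over respiratory chain members lay between -0.12 without mock 1 and 0.03 after median centring. Leaving out a library forces a fit across both tables with no pairing, assumes that a lone library varies like the other group, and gives no count of members by pair.

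For the median difference per complex, complex I had -0.11 after rescaling and 0.011 after median centring, and -0.17 to 0.021 with a library left out. For the median difference per complex, complex II had -0.22 after rescaling and -0.11 after median centring, and -0.30 to 0.020 with a library left out. For the median difference per complex, complex III had 0.0715 after median centring, -0.0489 after rescaling, -0.0690 after quantile normalization, and -0.0486 to 0.12 with a library left out. Complex IV had -0.14 to 0.15 with a library left out. Members higher in both pairs numbered 5 after rescaling, 6 after quantile normalization and 23 after median centring, and those lower in both pairs 7 after median centring. With 2 pairs, a member's standard error was 0.11 to 0.34, and differences of that size were not detectable.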
